A study of Mus musculus with 6 samples.

Results

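The genes described here encode the extracellular and membrane side of WNT signalling in cultured mouse enteric glial cells (EGCs), which surround the neurons of the intestine. They were selected by gene symbol alone: the WNT ligands, the Frizzled receptors (Fzd), the co-receptors Lrp5 and Lrp6, the R-spondins (Rspo) with their receptors Lgr4 to Lgr6, the secreted inhibitors of the Sfrp and Dkk families with Wif1, and the pathway genes Axin2, Lef1 and Tcf7. The rule matched 50 of the 46603 gene identifiers in the deposited counts. EGCs were grown from neurospheres prepared from the intestine of C57BL/6J embryos at E14.5 of gestation, dissociated, and kept in serum-containing medium until confluent. RNA was sequenced from 3 control libraries, labelled as untreated, and from 3 libraries of cells exposed for 12 h to 100 ng/ml lipopolysaccharide (LPS), a component of the outer membrane of Gram-negative bacteria. No genotype other than the strain was given, and the control cells shared the embryonic origin, the neurosphere stage and the serum with the LPS cells. Whether the 3 libraries of a group came from separate cultures was not stated, so p-values measure the spread between these libraries, which may be technical.

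WNT ligands are secreted lipid-modified proteins that bind a Frizzled receptor together with LRP5 or LRP6, after which beta-catenin escapes degradation and switches on genes with TCF/LEF factors, Axin2 among them. R-spondins bound to LGR receptors keep Frizzled proteins at the cell surface, whereas SFRP and WIF1 proteins trap the ligands and Dickkopf proteins block the LRP co-receptors. In the gut, WNT and R-spondin signals from stromal cells are best known for maintaining epithelial stem cells, and WNT signalling also takes part in the development of the neural crest from which enteric glia arise.

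The libraries held between 18775316 and 23664312 counts, and 3 counts were taken as the limit of detection, a floor of 0.124 to 0.167 CPM (counts per 1000000 counts of the scaled library) depending on the library. Transcripts of 8 glial marker genes summed to 264 to 377 CPM in control and 306 to 324 CPM in LPS libraries, and none of the 8 was at 0 in all libraries. The cultures were mixed by their markers: 9 mesenchymal genes summed to between 15165 and 16314 CPM across the libraries. Smooth muscle markers summed to 2290 to 2523 CPM in control and 640 to 911 CPM in LPS, and 7 of the 7 tested were called lower (against 6.71% of all genes). Fewer were called in the other lists (against 9.09% of all genes higher and 6.71% lower). Called higher were 1 of 12 macrophage, 1 of 7 glial and 2 of 9 mesenchymal markers. Called lower were 1 of 5 mesothelial, 1 of 7 glial, 1 of 8 neuronal, 1 of 3 ICC and 1 of 4 endothelial markers, and 0 of 10 cell cycle genes were called. The replicate block described below called 15.4% of all genes higher and 14.9% lower. With it, 5 macrophage markers were higher and 3 lower, 2 mesenchymal higher and 2 lower, 2 endothelial higher and 1 lower, and 2 glial higher and 1 lower. Only lower were 4 mesothelial, 2 ICC and 1 neuronal markers and 2 cell cycle genes. Macrophage markers summed to 3889 and 5013 CPM in control replicates 1 and 2 and to 11909 CPM in control replicate 3, and to 4040, 5248 and 19710 CPM in the LPS replicates, so the libraries numbered 3 stood apart. Interstitial cell (ICC) markers ran the other way in control, with 203 and 204 CPM in replicates 1 and 2 and 68.2 CPM in replicate 3, against 50.5 to 87.0 CPM in LPS. Mesothelial markers summed to 63.2 to 95.4 CPM in control and 34.6 to 56.4 CPM in LPS, endothelial markers to 27.8 to 74.4 and 15.5 to 29.6 CPM, neuronal markers to 273 to 489 and 291 to 469 CPM, and cell cycle genes to 429 to 854 and 312 to 374 CPM. Epithelial markers stayed between 1.24 and 2.85 CPM with Cdx2 at 0 in all 6 libraries. The part of these other cell types in the results that follow was not tested. In bulk RNA, fewer cells of a type and less RNA per cell cannot be told apart.

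After exposure to LPS, 1 WNT ligand was called higher, while 2 ligands, 1 Frizzled receptor, 1 co-receptor and 2 Dickkopf genes were called lower. Of the 50 genes, 33 passed the filter on low counts and were tested, 11 were at the floor in all 6 libraries, and 6 were above the floor in at least 1 library but too low to be tested. By the edgeR quasi-likelihood test, 1 of the 33 was called higher in LPS (3.03%, against 9.09% of all 15226 genes tested): the ligand Wnt6. Called lower were 6 genes (18.2%, against 6.71% of all genes): the ligands Wnt2 and Wnt10b, the receptor Fzd4, the co-receptor Lrp6 and the Dickkopf genes Dkk2 and Dkk3. The remaining 26 tested genes were not called. The number called lower depended on single libraries: it was 1 with control replicate 1 or 2 or LPS replicate 2 omitted, 2 without LPS replicate 1 and 11 without LPS replicate 3, and it was 13 with library size alone or with DESeq2. Over all genes the number called lower also moved, from 1022 to 194, 112 and 162 with control replicate 1, control replicate 2 or LPS replicate 2 omitted. It was 224 without LPS replicate 1, 1426 without LPS replicate 3, 2054 with library size alone and 1673 with DESeq2. Of the WNT genes, the number called higher was 2 without control replicate 3 or without LPS replicate 3, and 1 without any other library. Over all genes it was 1384, and 379 to 1964 with 1 library left out.

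The median log2 fold change of the 33 tested genes was -0.63, against -0.02 for all genes, and 27 of the 33 had a negative value. In 15 of them each LPS library was below each control library, against 19.4% of all genes, and in 1 each LPS library was above, against 19.3% of all genes. When the replicate number entered the test as a block, which compares each LPS library with the control library of the same number, 3 genes were called higher (9.09%, against 15.4% of all genes) and 16 lower (48.5%, against 14.9% of all genes). The 7 genes called without the block were among these 19. The match of the numbers 1 and 2 between the groups is not settled by the data, so the block rests in part on the labels. Relative to TMM scaling, the median of all genes shifted to -0.12 with upper-quartile factors and to -0.18 with library size alone. The direction under either was followed for 21 genes, those called with or without the block or most abundant per kb in their role. Among these only Lrp5, at 0.077 with TMM scaling, turned.

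**Figure D1:**
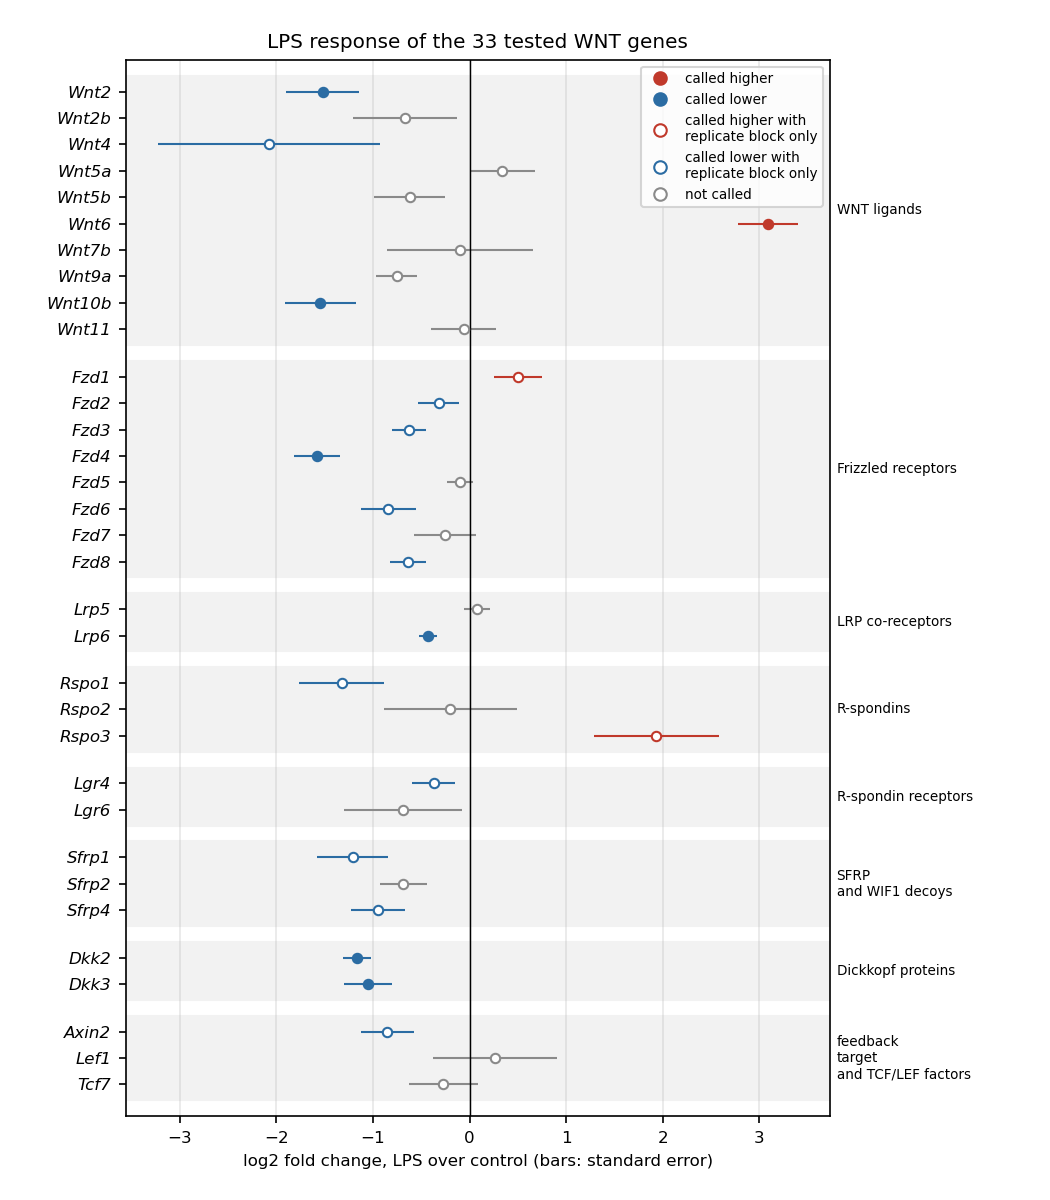
Log2 fold change of LPS over control for the 33 tested WNT genes, grouped by role, with bars for the standard error of the edgeR fit over 3 control and 3 LPS libraries. Filled points were called, open coloured points were called only with the replicate block, and grey points were not called; Wnt6 lies at 3.09 and most other points lie left of 0.

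To place the called genes in the genome, the 250 bases before the start site are shown for the 3 called genes whose start site was the same in RefSeq and GENCODE M21 (GRCm38). They are written 5′ to 3′ on the strand of the gene, with capitals for matches to the kB pattern (GGG, any 5 bases, CC) on either strand, the core recognised by NF-kB factors, and overlapping matches run together. The windows are chr1:74771642-74771891 (plus strand) for Wnt6, chr3:132085042-132085291 (plus strand) for Dkk2 and chr15:98778151-98778400 (minus strand) for Wnt10b, and they show the ligand that rose beside an inhibitor and a ligand that fell.
Wnt6: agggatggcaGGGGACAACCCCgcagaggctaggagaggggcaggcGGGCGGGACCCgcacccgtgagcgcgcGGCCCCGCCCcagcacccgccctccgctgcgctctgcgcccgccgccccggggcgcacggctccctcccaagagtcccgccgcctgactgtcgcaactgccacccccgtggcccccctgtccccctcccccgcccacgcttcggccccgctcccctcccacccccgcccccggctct
Dkk2: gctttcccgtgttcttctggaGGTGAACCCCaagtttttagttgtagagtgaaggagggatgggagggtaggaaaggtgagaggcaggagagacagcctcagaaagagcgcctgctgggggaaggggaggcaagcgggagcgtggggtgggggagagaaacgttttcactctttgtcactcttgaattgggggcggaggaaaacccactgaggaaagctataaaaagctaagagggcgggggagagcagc
Wnt10b: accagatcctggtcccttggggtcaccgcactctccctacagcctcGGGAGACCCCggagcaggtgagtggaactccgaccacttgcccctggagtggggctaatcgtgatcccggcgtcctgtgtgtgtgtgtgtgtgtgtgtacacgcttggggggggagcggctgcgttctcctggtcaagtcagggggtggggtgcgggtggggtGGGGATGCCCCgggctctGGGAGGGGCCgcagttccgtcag
The Wnt6 window held 6 matches, the Dkk2 window 1 and the Wnt10b window 4, and their GC contents were 79.6%, 55.6% and 66.8%. The TCF/LEF pattern ATCAAAG and the interferon response pattern (GAAA, any 2 bases, GAAA), searched on both strands, were absent from all 3. RefSeq promoters were at hand for 33 of the 50 genes, with 40 windows. The kB pattern was in 28 of these windows (70%), against 45.8% of 32851 mouse promoter windows of the same length, TCF/LEF in 2 (5%, in Wnt5b and Wnt11, against 3.21%) and the interferon pattern in 0 (against 2.98%). The median GC content was 66.6% in these windows and 52.4% in all promoter windows, and the part of base composition in the difference was not tested.

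Wnt5a, a ligand best known for signalling that does not pass through beta-catenin, was the most abundant ligand per length of transcript in 5 of the 6 libraries. On the scale of CPM per kb of exon it was at 10.8 ± 2.94 in control and 13.7 ± 4.95 in LPS (SD, n = 3 each). Wnt4 and Wnt9a followed in control at 4.40 ± 2.96 and 3.09 ± 0.69 CPM per kb (SD, n = 3 each), which overlapped. Their order turned with the library: Wnt9a was ahead of Wnt4 in control replicates 1 and 2, with 13.8% against 11.4% and 14.97% against 10.7% of the summed CPM per kb of all ligands. In control replicate 3 Wnt4 was ahead of all other ligands, with 35.6% of that sum against 34.1% for Wnt5a. The share of Wnt5a was 51.7% and 51.2% in the other control libraries and 73.5%, 72.8% and 44.4% in the LPS libraries 1, 2 and 3. The share was higher in LPS within each of the 3 numbers, while LPS replicate 3 lay within the range of the control libraries. This difference was not tested.

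Of the 19 ligand genes, 10 were tested. Wnt1, Wnt3, Wnt3a, Wnt7a, Wnt8a, Wnt8b, Wnt9b and Wnt10a had 3 counts or fewer in each library, which allows levels up to the floor given above, and no count at all was seen for Wnt8a and Wnt9b. Wnt16 had between 1 and 5 counts, above the floor in 2 of the 6 libraries, and was not tested. Several ligand genes lie side by side in the mouse genome, and their levels were unequal: Wnt6 is 6.19 kb from Wnt10a on chromosome 1, Wnt10b is 11.7 kb from Wnt1 on chromosome 15 and Wnt9a is 16.2 kb from Wnt3a on chromosome 11. In each of these 3 pairs the first gene was tested and the second was at the floor. Wnt3 and Wnt9b, 24.3 kb apart on chromosome 11, were both at the floor.

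**Figure D2:**
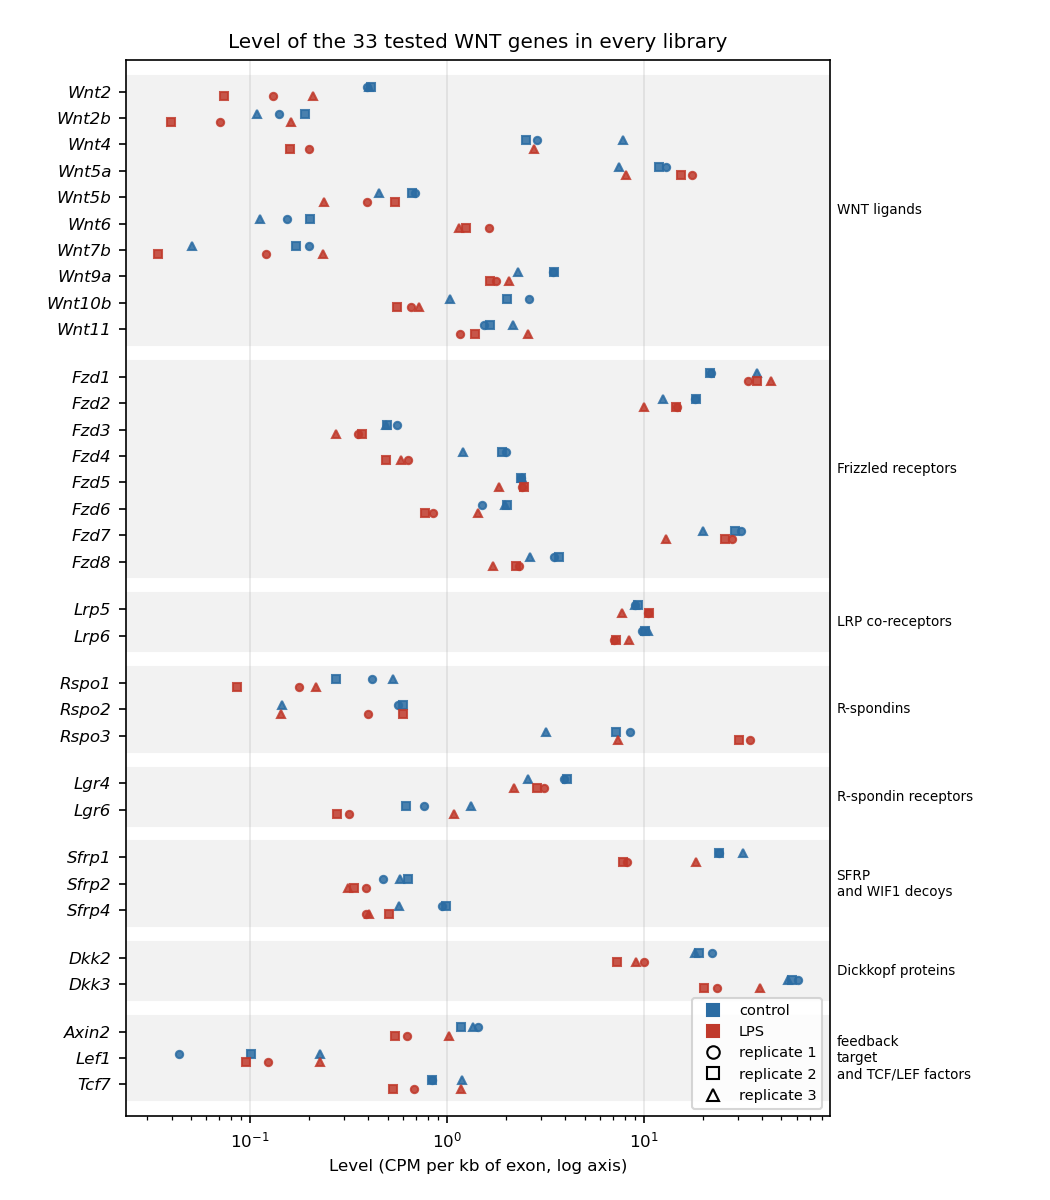
Level of the 33 tested WNT genes in every library, in CPM per kb of exon on a log axis, with control in blue, LPS in red and a marker shape for each replicate number. Dkk3 was the most abundant in control at 57.0, Fzd1, Fzd7 and Sfrp1 were near 27, and most ligands other than Wnt5a and Wnt4 lay lower.

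Wnt6, a ligand known for its part in neural crest and epithelial development (chromosome 1, 74771892 to 74785322, plus strand, GRCm38), had 8, 10 and 6 counts in the control libraries and 73, 49 and 48 counts in the LPS libraries. This corresponded to 0.34, 0.44 and 0.25 CPM in control and 3.61, 2.73 and 2.51 CPM in LPS. All LPS libraries were far above all control libraries. Wnt6 passed the filter only through the LPS group, where it is high, and without the filter it was still called (edgeR adjusted p = 0.00289). The level rose 8.50-fold, a log2 fold change of 3.09 (SE 0.31, edgeR adjusted p = 0.00327), and the call was kept when each library was left out in turn, with adjusted p between 0.00353 and 0.0272. Per length, Wnt6 went from 0.157 ± 0.0444 CPM per kb in control to 1.35 ± 0.26 CPM per kb in LPS (SD, n = 3 each), where Wnt5a was at 13.7, Wnt9a at 1.83, Wnt11 at 1.71 and Wnt4 at 1.04 CPM per kb.

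Wnt10b, a ligand known for promoting bone formation (chromosome 15, 98770712 to 98778150, minus strand), was at 8.86, 6.91 and 3.51 CPM in control and 2.22, 1.89 and 2.46 CPM in LPS. The groups did not overlap, although control replicate 3 came close to the LPS libraries. The log2 fold change was -1.55 (SE 0.37, edgeR adjusted p = 0.0416), and leaving out any library but control replicate 3 ended the call, with adjusted p up to 0.148, and limma-voom did not make it (adjusted p = 0.0896). Wnt2, a ligand needed for lung development (chromosome 6, 17988940 to 18030585, minus strand), had 21, 21 and 22 counts in control and 6, 3 and 9 counts in LPS. Its LPS counts did not reach the minimum count of 10, so it passed the filter only through the control group, where it is high. Means were 0.91 ± 0.020 CPM in the control and 0.31 ± 0.15 CPM in the LPS group (SD, n = 3 each), without overlap, and the gene fell by 1.52 on the log2 scale (SE 0.38, edgeR adjusted p = 0.048). The call did not survive the omission of any library except LPS replicate 3, with adjusted p up to 0.165, and it was also lost without the filter on low counts.

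Wnt4, known for its role in kidney and gonad formation (chromosome 4, 137277489 to 137299726, plus strand), was at 12.1, 10.5 and 32.8 CPM in control and at 0.84, 0.67 and 11.6 CPM in LPS. Within each number the LPS library was the lower, but LPS replicate 3 was as high as control replicates 1 and 2. The log2 fold change was -2.08 (SE 1.15, edgeR adjusted p = 0.272), and with the replicate block it was -2.76 (SE 0.56, edgeR adjusted p = 0.0271). Wnt5a (chromosome 14, 28504750 to 28527448, plus strand) was at 102, 94.0 and 58.6 CPM in control and 137, 121 and 63.6 CPM in LPS. The groups overlapped, and the log2 fold change of 0.34 (SE 0.34) had an edgeR adjusted p of 0.542, and of 0.051 with the block. The other 5 tested ligands, Wnt2b, Wnt5b, Wnt7b, Wnt9a and Wnt11, were called in neither fit, with log2 fold changes of -0.75 to -0.062. Among them Wnt9a, known from joint development, had no overlap, with 11.5, 11.7 and 7.60 CPM in control and 5.88, 5.52 and 6.86 CPM in LPS (edgeR adjusted p = 0.0646).

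**Figure D3:**
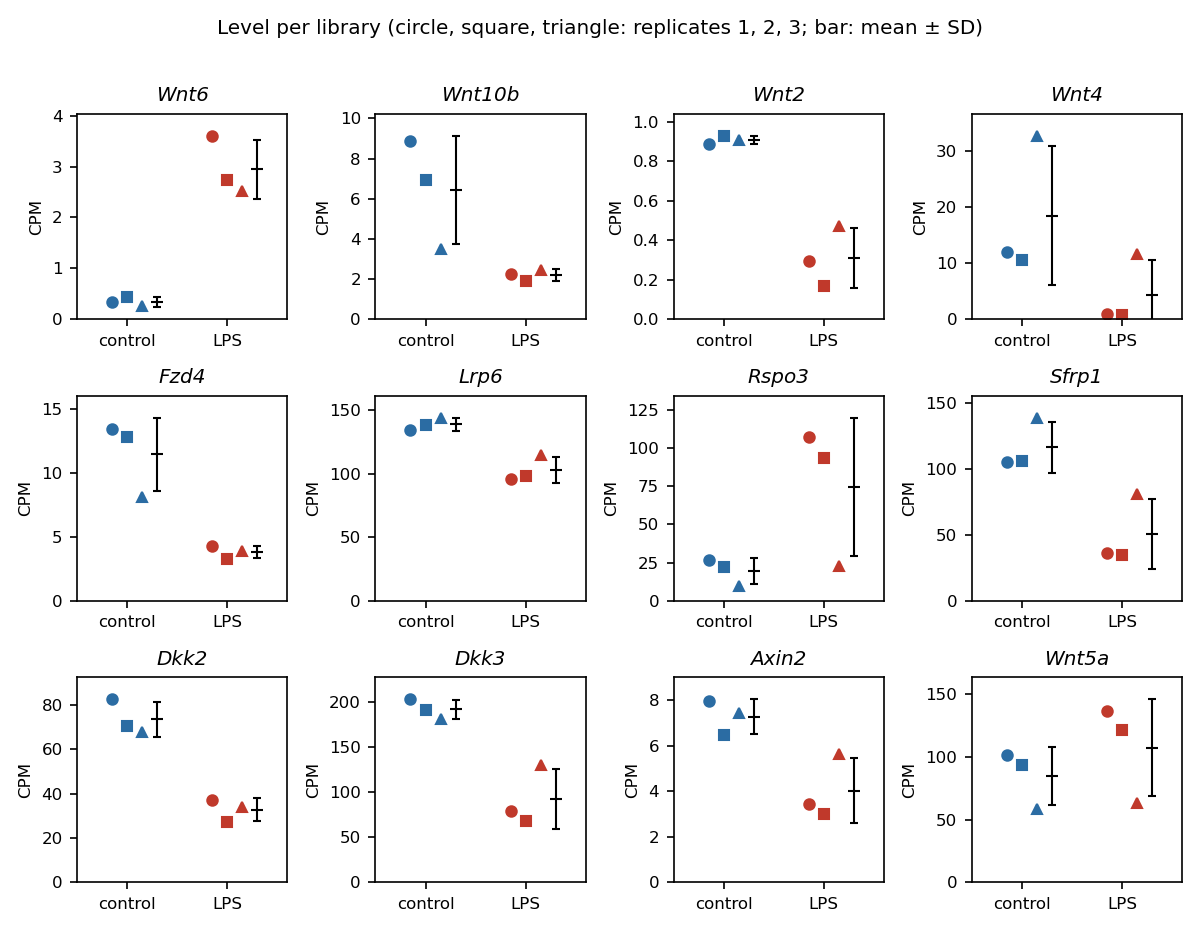
Level in CPM of 12 WNT genes in each control (blue) and LPS (red) library, with circles, squares and triangles for replicates 1, 2 and 3 and a black bar for the mean ± SD (n = 3); each panel has its own linear axis from 0, where the lower bar of Wnt4 is cut off. Wnt6 was higher and Wnt10b, Wnt2, Fzd4, Lrp6, Sfrp1, Dkk2, Dkk3 and Axin2 were lower in all LPS libraries than in any control library, while the triangles of Wnt4, Rspo3 and Wnt5a bring the groups together.

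Among the receptors, Fzd1, Fzd7 and Fzd2, which form one sequence subfamily, were the most abundant per length in both groups, at 27.2 ± 9.17, 26.7 ± 5.97 and 16.4 ± 3.34 CPM per kb in control (SD, n = 3 each). In control Fzd1 and Fzd7 did not differ beyond their spread, and in LPS they were at 38.6 ± 5.43 and 22.4 ± 8.18 CPM per kb (SD, n = 3 each), with Fzd1 ahead in each library. Fzd7 was first in control replicates 1 and 2, with 38.2% and 36.3% of the summed Frizzled CPM per kb, and Fzd1 was first in the other 4 libraries, with 47.7% in control replicate 3 and 40.5%, 44.4% and 60.5% in the LPS libraries. Of 10 Frizzled genes, 8 were tested, of which 0 were called higher and 1 lower (against 9.09% and 6.71% of all genes), or 1 higher and 5 lower with the block (against 15.4% and 14.9%). Fzd9 had 14, 10 and 6 counts in control and 0, 1 and 2 in LPS, without overlap, and Fzd10 had between 0 and 11 counts, and neither passed the filter with all 6 libraries. Fzd9 passed it with any single LPS library left out, but only through its control counts, the group where it is high. Its edgeR adjusted p of 0.0494 (called lower, without LPS replicate 3) to 0.173 is therefore not read as support for a fall.

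Fzd4, a receptor for WNT ligands and for norrin in retinal vessels (chromosome 7, 89404355 to 89413134, plus strand), was at 13.4, 12.8 and 8.14 CPM in control and 4.25, 3.29 and 3.93 CPM in LPS. The lowest control library was well above the highest LPS library. The level was 2.99-fold lower in LPS, a log2 fold change of -1.58 (SE 0.24, edgeR adjusted p = 0.0123). The call was lost with control replicate 1 or 2 or LPS replicate 2 omitted, with adjusted p up to 0.0671.

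The receptors called only with the block moved less. Fzd1 (chromosome 5, 4753839 to 4758035, minus strand) was at 92.5, 91.3 and 159 CPM in control and at 141, 158 and 186 CPM in LPS. It was higher in LPS within each number, although control replicate 3 overlapped the LPS range. Its log2 fold change was 0.50 (SE 0.25, edgeR adjusted p = 0.224), or 0.54 with the block (adjusted p = 0.0335). Fzd2 was at 66.8, 67.5 and 46.0 CPM in control and 54.2, 53.4 and 36.6 CPM in LPS, overlapping between groups but lower within each number (log2 fold change -0.32, edgeR adjusted p = 0.361, or 0.0181 with the block).

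Fzd3 and Fzd6, the receptors known for planar cell polarity, did not overlap between groups. Fzd3 was at 7.12, 6.37 and 6.28 CPM in control and 4.55, 4.74 and 3.51 CPM in LPS (log2 fold change -0.63, edgeR adjusted p = 0.0628, or 0.041 with the block). Fzd6 was at 7.25, 9.78 and 9.55 CPM in control and 4.10, 3.73 and 6.96 CPM in LPS (log2 fold change -0.84, edgeR adjusted p = 0.101, or 0.0434 with the block). Fzd8, which groups with Fzd5 by sequence, was likewise lower in each LPS library, at 20.8, 22.0 and 15.7 CPM in control and 13.9, 13.4 and 10.3 CPM in LPS (log2 fold change -0.64, edgeR adjusted p = 0.0701, or 0.0103 with the block). Fzd5 and Fzd7 were called in neither fit, with log2 fold changes of -0.10 and -0.26 (edgeR adjusted p = 0.667 and 0.639).

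The co-receptors Lrp5 and Lrp6 were at like levels in control, 9.12 ± 0.19 and 10.2 ± 0.37 CPM per kb (SD, n = 3 each). Lrp6 (chromosome 6, 134446476 to 134566965, minus strand) was at 134, 139 and 144 CPM in control and 96.2, 98.5 and 114 CPM in LPS. The fall was small and larger than the spread, 139 ± 5.08 CPM in control against 103 ± 9.96 CPM in LPS (SD, n = 3 each), which is -0.43 on the log2 scale (SE 0.091, edgeR adjusted p = 0.0304). Omitting any library except LPS replicate 3 brought the adjusted p above the threshold, to at most 0.126. Lrp5 (chromosome 19, 3584828 to 3686564, minus strand) was at 87.6, 90.9 and 88.0 CPM in control and 103, 103 and 75.3 CPM in LPS. LPS replicate 3 lay below the control libraries and the other LPS libraries above them (log2 fold change 0.077, edgeR adjusted p = 0.741).

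The R-spondin that was abundant in these cultures was Rspo3, the family member best known for supporting intestinal stem cells (chromosome 10, 29452416 to 29535867, minus strand). It was at 26.4, 22.3 and 9.84 CPM in control and at 107, 93.7 and 23.0 CPM in LPS. Within each number the LPS library was higher, by 2.02, 2.07 and 1.22 on the log2 scale, yet LPS replicate 3 fell within the control range. The log2 fold change was 1.93 (SE 0.65, edgeR adjusted p = 0.0998) without the block, and 1.80 (SE 0.19, edgeR adjusted p = 0.00598) with it. Per length, Rspo3 was at 6.32 ± 2.80 CPM per kb in control and 24.1 ± 14.6 CPM per kb in LPS (SD, n = 3 each), whereas Rspo1 and Rspo2 stayed under 1 CPM per kb in each group's mean.

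Rspo1 was at 0.81, 0.53 and 1.03 CPM in control and 0.35, 0.17 and 0.42 CPM in LPS, without overlap (log2 fold change -1.32, edgeR adjusted p = 0.0966, or 0.0332 with the block). Its LPS counts of 7, 3 and 8 were under the minimum count of 10, so it passed the filter only through the control group. Rspo2 was not called, with a log2 fold change of -0.20 (edgeR adjusted p = 0.876), and Rspo4 was at the floor. Rspo1 and Rspo3 thus took opposite signs within each number. Of the R-spondin receptors, Lgr4 was the most abundant, at 3.53 ± 0.82 CPM per kb in control and 2.73 ± 0.48 CPM per kb in LPS (SD, n = 3 each). It was at 23.1, 23.9 and 15.2 CPM in control and at 18.4, 16.8 and 12.9 CPM in LPS, which overlapped (log2 fold change -0.37, edgeR adjusted p = 0.309, or 0.0465 with the block). Lgr6 was not called (log2 fold change -0.69, edgeR adjusted p = 0.489), and Lgr5, the marker of intestinal stem cells, had between 4 and 11 counts per library and was not tested.

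Secreted inhibitors that trap WNT ligands were dominated by Sfrp1, at 26.6 ± 4.43 CPM per kb in control (SD, n = 3). Sfrp1 (chromosome 8, 23411502 to 23449632, plus strand) was at 105, 106 and 139 CPM in control and at 35.9, 34.4 and 80.8 CPM in LPS. The groups did not overlap, and both libraries numbered 3 were the highest of their group. Its log2 fold change was -1.21 (SE 0.37, edgeR adjusted p = 0.0781), and with the block it was -1.31 (SE 0.19, edgeR adjusted p = 0.0126). Sfrp4 was at 3.94, 4.12 and 2.40 CPM in control and at 1.63, 2.12 and 1.67 CPM in LPS, without overlap (log2 fold change -0.95, edgeR adjusted p = 0.0731, or 0.0408 with the block). Sfrp2 was called in neither fit but had no overlap between groups (log2 fold change -0.69, edgeR adjusted p = 0.112). Sfrp5 was at the floor, and Wif1 had between 2 and 10 counts per library and was not tested.

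Both Dickkopf genes that could be tested fell. Dkk2, which binds LRP5 and LRP6 (chromosome 3, 132085292 to 132180304, plus strand), was at 82.5, 70.3 and 67.6 CPM in control and 37.3, 27.0 and 34.0 CPM in LPS. The groups were well separated. It fell 2.24-fold, a log2 fold change of -1.17 (SE 0.15, edgeR adjusted p = 0.00724), and the call was kept when each library was left out in turn, with adjusted p between 0.0103 and 0.0416.

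Dkk3, a divergent member of the family whose action on LRP receptors is unsettled (chromosome 7, 112116017 to 112159057, minus strand), was at 203, 190.3 and 181 CPM in control and at 78.8, 67.7 and 130.5 CPM in LPS. LPS replicate 3 lay between the other LPS libraries and the control libraries. The log2 fold change was -1.05 (SE 0.25, edgeR adjusted p = 0.0424), with an adjusted p of 0.00126 without LPS replicate 3 and of up to 0.138, no longer called, without any other library. Dkk3 went from 57.0 ± 3.19 to 27.5 ± 9.97 CPM per kb (SD, n = 3 each), below Fzd1 at 38.6 ± 5.43 in LPS. Dkk1 had between 0 and 9 counts and was not tested, and Dkk4 had no count in any library.

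Axin2, a feedback inhibitor that beta-catenin signalling switches on and that is widely read as a sign of it (chromosome 11, 108920349 to 108950783, plus strand), was at 7.97, 6.46 and 7.44 CPM in control and 3.46, 3.01 and 5.65 CPM in LPS. All LPS libraries lay below all control libraries. The log2 fold change was -0.85 (SE 0.27, edgeR adjusted p = 0.0893), or -0.89 with the block (SE 0.22, edgeR adjusted p = 0.0411). The DNA-binding partners Lef1 and Tcf7 were low, under 1 CPM per kb in each group's mean, and their log2 fold changes of 0.26 and -0.27 were not called (edgeR adjusted p = 0.82 and 0.65).

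The libraries numbered 3 showed a smaller LPS difference for many of these genes. Within numbers 1, 2 and 3 the log2 difference of LPS from control was -3.70, -3.77 and -1.49 for Wnt4, -1.94, -1.80 and -0.49 for Wnt10b and -1.54, -1.62 and -0.78 for Sfrp1. For Fzd2, Fzd8 and Rspo1 the 3 numbers gave nearly the same difference. With both libraries numbered 3 left out, a setting chosen after seeing the data, 5 genes were called higher (against 22.6% of 15466 genes) and 18 lower (against 20.4%). The 5 were Wnt6, Rspo3, Fzd1, Wnt5a and Lrp5. Wnt4, at -3.87 (edgeR adjusted p = 3.47e-05), Rspo3, at 2.07 (2.48e-05), and Sfrp1, at -1.56 (6.35e-06), were then called without the block, while Rspo1 was not (edgeR adjusted p = 0.0798). The macrophage sums above were highest in the same libraries, and their part in this was not tested.

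**Figure D4:**
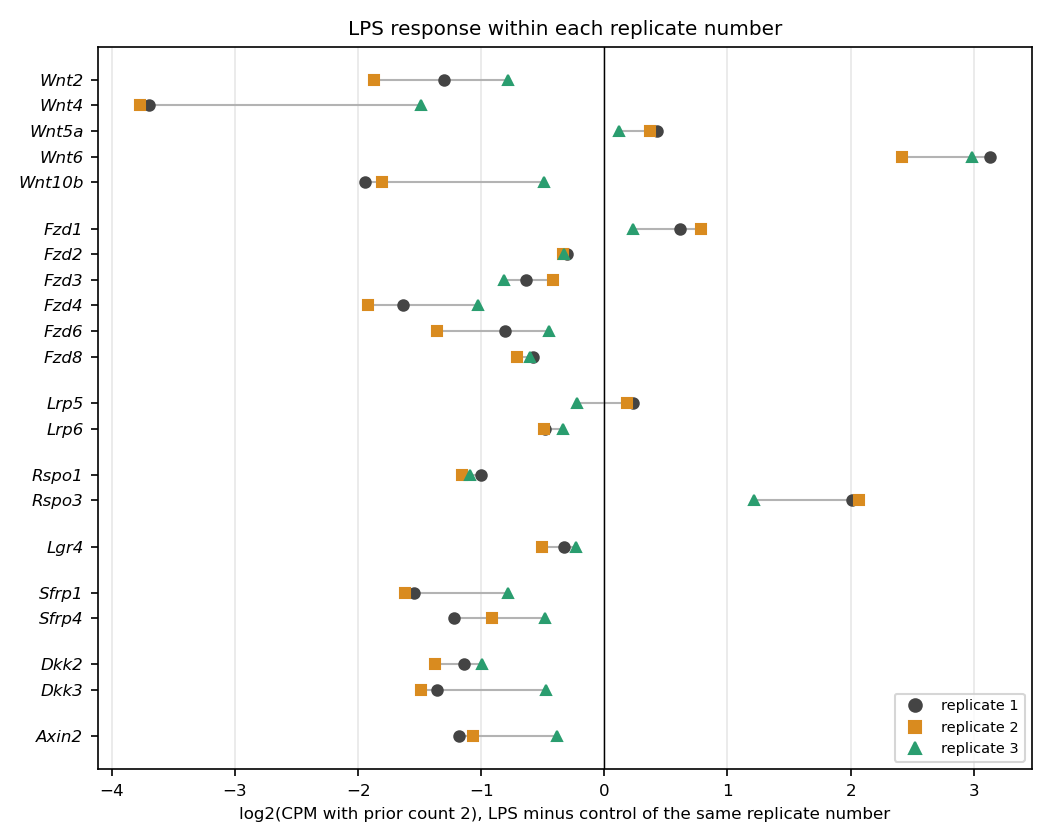
Log2 difference in CPM (prior count 2) between the LPS and the control library of each replicate number, for 21 WNT genes ordered by role. In 20 of the 21 the 3 numbers lie on one side of 0, Lrp5 being the exception, and replicate 3 lies nearest to 0 in most of those with a wide spread, such as Wnt4 and Rspo3.

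The other genes of the pathway were taken from a list of 69, covering ligand secretion, other receptors and antagonists, the beta-catenin destruction complex and its relay, planar polarity, nuclear partners and textbook targets. Of the 63 tested, 6 were called higher and 11 lower (against 9.09% and 6.71% of all genes), or 7 and 21 with the block (against 15.4% and 14.9%), so the share called higher was near that of all genes without the block and below it with the block. Their median log2 fold change was -0.21, against -0.02 for all genes. The largest rises were those of Dact2, an antagonist at the level of Dishevelled, with 1.63 ± 0.42 CPM in the control and 6.65 ± 2.07 CPM in the LPS group (SD, n = 3 each; log2 fold change 2.03 with an edgeR adjusted p of 0.0143), and Draxin, a secreted guidance protein that also binds LRP6 (1.76, edgeR adjusted p = 0.0204). Fosl1 (1.71, edgeR adjusted p = 0.0389) and Cd44 (0.86, edgeR adjusted p = 0.0327), known as targets of beta-catenin and of other pathways, followed. The largest fall was that of Daam2, a formin that acts with Dishevelled, with 33.6 ± 2.02 CPM in the control and 9.11 ± 1.38 CPM in the LPS group (SD, n = 3 each; log2 fold change -1.88 with an edgeR adjusted p of 0.00127). Cyclin D1 (Ccnd1), a target that drives the cell cycle, was at 462 ± 95.2 and 198 ± 27.8 CPM in control and LPS (SD, n = 3 each; log2 fold change -1.22 with an edgeR adjusted p of 0.0137). Trabd2b, a protease that inactivates WNT ligands (-1.16, edgeR adjusted p = 0.0152), and Pygo1, a nuclear partner of beta-catenin (-1.14, edgeR adjusted p = 0.0141), also fell.

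Of the feedback genes, Nkd1 was at 11.7, 11.2 and 18.0 CPM in control and 2.37, 2.67 and 6.86 CPM in LPS, without overlap. Its log2 fold change was -1.78 (edgeR adjusted p = 0.0533), or -1.89 with the block (adjusted p = 0.00731). Znrf3, a ligase that removes Frizzled from the surface, was at -0.65 (edgeR adjusted p = 0.186, or 0.043 with the block), and Notum, an enzyme that strips the lipid from WNT ligands, at -0.51 (edgeR adjusted p = 0.316). Rnf43 had between 4 and 13 counts and Sp5 between 0 and 3, and neither passed the filter with all 6 libraries. In the fits with libraries left out that kept it, Rnf43 had log2 fold changes of 0.80 to 1.49 and was not called (edgeR adjusted p = 0.137 to 0.463). Nkd2, the paralogue of Nkd1, named here after its values were seen, was called higher, at 51.0, 52.8 and 55.3 CPM in control and 72.7, 78.3 and 99.2 CPM in LPS (log2 fold change 0.65, edgeR adjusted p = 0.0258), and so was Kremen1, a receptor for Dickkopf proteins (0.31, edgeR adjusted p = 0.0439). With control replicate 1 or 2 or LPS replicate 2 omitted, the number of other pathway genes called higher went from 6 to 0 and the number called lower from 11 to 1, Daam2, and without LPS replicate 1 the numbers were 2 and 1. Over all genes, the number called higher went from 1384 to 470, 379 and 523 with control replicate 1, control replicate 2 or LPS replicate 2 omitted. The number called lower went from 1022 to 194, 112 and 162, and without LPS replicate 1 the numbers were 619 and 224.

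**Figure D5:**
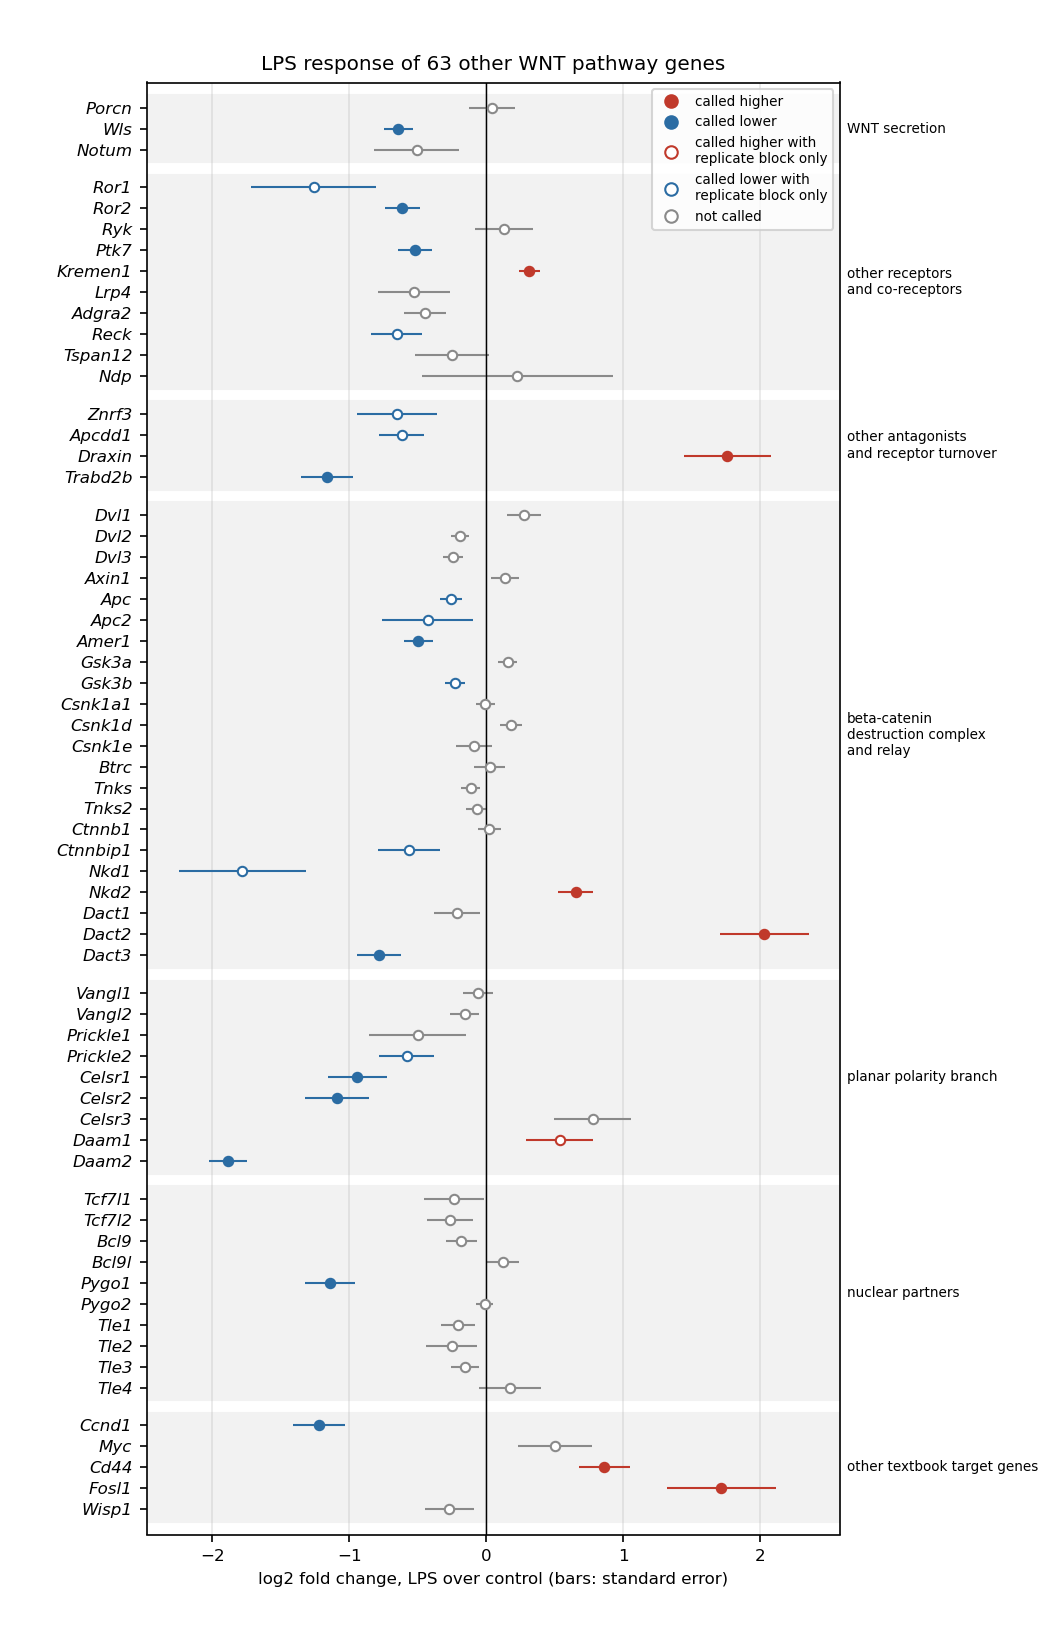
Log2 fold change of LPS over control for the 63 tested genes of the wider WNT pathway, grouped by list, with bars for the standard error and the same colours as for the receptors and ligands. Dact2 lies farthest to the right at 2.03 and Daam2 farthest to the left at -1.88, and the 22 genes of the destruction complex and its relay, Dact2 among them, have a median of -0.10.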

How the data were processed

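The authors deposited raw counts per gene for each library, whole numbers that were neither normalized nor pooled. RNA was selected by poly(A) and libraries were made with a stranded kit. The submitters' processing notes name cutadapt 1.15, Bowtie2 2.3.3.1, STAR 2.5.2b, SAMtools 1.5, featureCounts 1.5.3 and the build GRCm38. The strand setting used in counting was not given in the sources used here, so genes that overlap an exon on the other strand are uncertain: Axin2, Fzd5, Fzd6, Lef1, Rspo3, Sfrp2, Wnt11, Wnt5a and Wnt7b share between 3.15% and 17.8% of their exon bases with such a gene (13.1% in Rspo3, 4.58% in Wnt5a). Columns that could not be matched to a sample numbered 0, no 2 libraries held identical values, and a table of the whole series that repeats the same counts was not used.

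Groups came from the sample labels. Genes were filtered with filterByExpr (minimum count 10, minimum total 15), scaled with TMM factors (0.918 to 1.08) and compared by the two-sided edgeR 4.0.16 quasi-likelihood F-test (R 4.3.3) over 15226 genes, with Benjamini-Hochberg adjustment over all of them and a call at an adjusted p under 0.05. CPM values are on the TMM-corrected sizes. The SE is the absolute log2 fold change divided by the square root of F. Exon lengths and coordinates are from GENCODE M21, promoter sequences from RefSeq (GRCm38.p6). The test was checked on simulated counts.

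The meaning of the replicate numbers is not in the labels. Group means were subtracted first. Control and LPS libraries with the numbers 1, 2 and 3 then correlated over all tested genes at r = 0.513, 0.334 and 0.613. Each was above the limit of 0.1 set for pairing, and pairing was taken from the data on that ground. Control replicate 1 correlated at 0.419 with LPS replicate 2 and control replicate 2 at 0.323 with LPS replicate 1. LPS replicate 2 thus correlated more with control replicate 1 than with control replicate 2. The libraries numbered 3 correlated negatively with those numbered 1 and 2 in the other group (-0.564 to -0.396). The correlations therefore set number 3 apart but do not settle the match of numbers 1 and 2.

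Values by library are given for each of the 50 genes called with or without the block and for the most abundant per kb in each role. Of the other pathway genes, the 4 largest called changes in each direction and 5 feedback genes are named. Wnt9a, Fzd9 and some others were named after their values were seen. The genes and lists were chosen with earlier results of these data known. Alternatives were other scaling factors, other filters, DESeq2 1.42.0, limma-voom (limma 3.58.1), the block, and each library left out. Intervals between libraries and floors do not account for PCR copies, which these counts cannot recognise.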

Additional observations from a re-analysis of the deposited data

How the results depend on the processing

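Direction was stable for 20 of the 21 genes that were called with or without the block or were the most abundant per kb in their role. Lrp5 turned, to -0.022 with upper-quartile factors (edgeR adjusted p = 0.938) and to -0.074 with library size alone (0.757). Of the calls for these 21 genes, Wnt10b was lost with limma-voom and Wnt2 without the filter, and 7 genes gained a call with DESeq2, 6 with library size alone and 1 with upper-quartile factors. Genes called higher numbered 2079 with DESeq2 and 379 to 1964 with 1 library left out. Genes called lower numbered 1589 with upper-quartile factors, 2054 with library size alone, 1673 with DESeq2 and 112 to 1426 with 1 library left out. Of the WNT genes, 2 were called higher with DESeq2, 0 with a minimum of 10 counts in every library, which Wnt6 does not reach, and 1 to 2 with 1 library left out. Called lower were 13 with library size alone, 13 with DESeq2 and 1 to 11 with 1 library left out. Of the other pathway genes, 0 to 9 were called higher with 1 library left out, and 18 with library size alone, 17 with DESeq2 and 1 to 17 with 1 library left out were called lower. The median log2 fold change of the tested WNT genes was -0.73 with upper-quartile factors, -0.78 with library size alone and -0.67 to -0.53 with 1 library left out.

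With the replicate block, 2343 genes were called higher and 2273 lower, 3 and 16 of the WNT genes and 7 and 21 of the other pathway genes. With both libraries numbered 3 left out, chosen after seeing the data, 3498 and 3159 genes, 5 and 18 WNT genes and 12 and 27 other pathway genes were called. The causes were not tested. Depth limits the genes at or near the floor.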
